A study of Mus musculus with 12 samples.

Results

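The inflammasome sensors and effectors comprised 10 genes taken by name from the count table of 43453 genes: the sensors Nlrp3, Mefv, Aim2, Nlrp1b and Nlrc4, the Nlrc4 partner Naip5, the adaptor Pycard, the caspases Casp1 and Casp4, and the pore former Gsdmd. Gene positions are those of RefSeq on GRCm38.p6, the mm10 build. All 10 were found and all 10 passed the filter on low counts in each comparison. RNA of BMDMs, macrophages grown from C57BL/6 bone marrow with 50 ng/mL of M-CSF for 7 days, was sequenced in 12 libraries. The tlr4f/f mice carry a floxed Tlr4 on both alleles, and tlr4f/f-lysM-cre mice carry in addition a Cre driven from the lysozyme M (Lyz2) promoter, which is active in myeloid cells and not in macrophages alone. BMDMs of each genotype were left untreated (LPS-) or received LPS at 1 µg/mL over 6 h (LPS+), with 3 libraries in each of the 4 groups. The age and sex of the donors of the marrow, and whether each library came from its own mouse, were not given in the sources used here, so p-values measure the spread between these libraries, which may be technical.

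Inflammasomes are assemblies in the cytosol of macrophages. A sensor that meets its trigger gathers the adaptor ASC (Pycard) and pro-caspase-1, and active caspase-1 then matures IL-1β and IL-18 and cuts gasdermin D, whose fragments form membrane pores. Macrophage Nlrp3 is known as a sensor whose transcript rises when TLR4 is engaged by LPS, a step called priming, and Casp4, which encodes mouse caspase-11, is known to bind LPS inside the cell.

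Upstream sequences are shown for the members in which a kappaB motif, the letters bound by NF-kappaB, was found, since TLR4 signals to NF-kappaB. The RefSeq promoter table (GRCm38.p6) held 9 of the 10 members, all but Gsdmd. The 250 bases before each start were searched on both strands for kappaB, the interferon motif (a GAAA and a second GAAA with 2 bases between), the STAT motif (TTC and GAA with 3 bases between) and the AP-1 motif (TGANTCA). A kappaB match lay at 4 of the 12 start sites of the 9 members (the second of Nlrp3, both of Casp4, whose windows overlap, and that of Naip5), against 7.25% of 32851 start sites in the table, and the first start site of Nlrp3 held none. The other motifs lay at 0 of 12, against 2.98%, 7.02% and 6.75%. Capitals mark the kappaB matches, which overlap each other at the first place in Casp4.
Nlrp3, second start site, chr11:59541319-59541568, plus strand: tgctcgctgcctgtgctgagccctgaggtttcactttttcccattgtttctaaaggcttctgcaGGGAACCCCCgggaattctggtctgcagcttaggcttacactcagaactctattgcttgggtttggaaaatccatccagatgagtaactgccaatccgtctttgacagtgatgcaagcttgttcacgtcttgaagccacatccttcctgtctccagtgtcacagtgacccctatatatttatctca
Casp4, first start site, chr9:5308599-5308848, plus strand: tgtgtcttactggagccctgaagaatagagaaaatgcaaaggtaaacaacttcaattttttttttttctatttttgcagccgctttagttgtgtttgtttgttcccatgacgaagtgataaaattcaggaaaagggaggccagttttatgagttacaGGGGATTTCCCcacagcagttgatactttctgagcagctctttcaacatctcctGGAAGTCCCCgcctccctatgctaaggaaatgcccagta
Naip5, chr13:100247337-100247586, minus strand: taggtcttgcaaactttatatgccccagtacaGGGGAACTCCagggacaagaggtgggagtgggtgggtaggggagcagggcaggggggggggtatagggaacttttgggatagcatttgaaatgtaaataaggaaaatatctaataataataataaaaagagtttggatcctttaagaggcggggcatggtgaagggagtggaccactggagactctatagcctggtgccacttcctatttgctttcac
The first match began at -186 from the start in Nlrp3, at -93 in Casp4 and at -218 in Naip5. A match describes letters, not binding.

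The headings of the deposited columns were checked against Tlr4, the targeted gene, Lyz2, the locus that carries the Cre, and Il1b, a gene that LPS induces. Tlr4 was measured at 77.0, 146 and 121 CPM under LPS- tlr4f/f, 117, 94.7 and 116 under LPS- tlr4f/f-lysM-cre, 31.2, 28.0 and 24.5 under LPS+ tlr4f/f, and 27.4, 24.4 and 24.7 under LPS+ tlr4f/f-lysM-cre, in the order of the replicates. CPM are counts scaled to the TMM-adjusted library size. Both LPS+ columns were below both LPS- columns, and the tlr4f/f-lysM-cre and tlr4f/f libraries overlapped at either LPS state (adjusted p = 0.847 and 0.280). Lyz2 stood at 6587, 9421 and 23331 CPM under LPS- tlr4f/f, 5953, 9453 and 7316 under LPS- tlr4f/f-lysM-cre, 10.4, 14.4 and 10.8 under LPS+ tlr4f/f, and 75.3, 58.3 and 52.4 under LPS+ tlr4f/f-lysM-cre. It was lower under both LPS+ headings than under both LPS- headings, without overlap. Il1b reached 6.95, 4.08 and 0.0750 CPM under LPS- tlr4f/f, 8224, 1633 and 2812 under LPS- tlr4f/f-lysM-cre, 2.69, 3.61 and 3.38 under LPS+ tlr4f/f, and 2604, 2671 and 2488 under LPS+ tlr4f/f-lysM-cre, so that it was high under tlr4f/f-lysM-cre at either LPS state and low under tlr4f/f, also in the column headed LPS+ tlr4f/f. If the heading LPS+ tlr4f/f were exchanged with LPS- tlr4f/f-lysM-cre, the low Tlr4 and Lyz2 columns would both be tlr4f/f-lysM-cre and the high Il1b columns would both be LPS+. The labels alone give no means to decide. The paper reports more expression of many defense, interferon and TNF genes in stimulated tlr4f/f BMDMs than in TLR4-deficient ones. As headed, Il1b, Gbp5 and Irf1 ran the other way, 809-fold, 217-fold and 5.04-fold higher under LPS+ tlr4f/f-lysM-cre than LPS+ tlr4f/f. With the headings exchanged, their log2 fold changes by genotype with LPS were -0.70, -1.47 and -0.39, with overlap for Il1b and Irf1. Those signs match the paper's direction, but an exchange was not tested. Each result is given in both readings, and libraries are named by their headings.

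**Figure D1:**
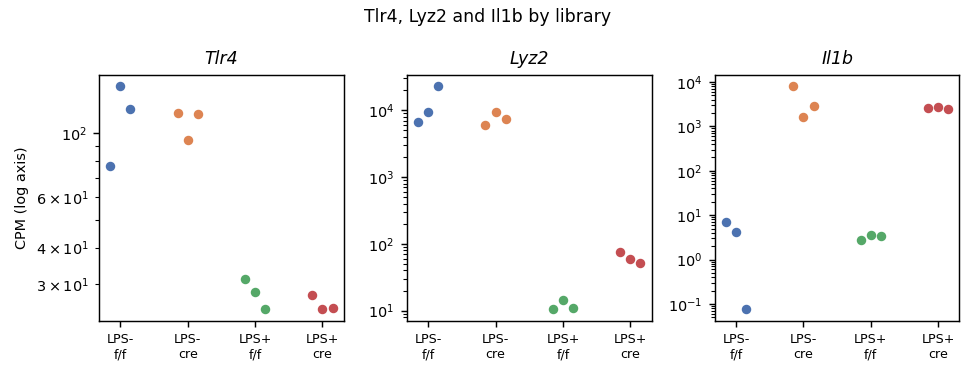
Tlr4, Lyz2 and Il1b in CPM (log axis) in each of the 12 libraries, grouped by column heading (f/f, tlr4f/f; cre, tlr4f/f-lysM-cre). Each point is 1 library. Tlr4 and Lyz2 are low in the 6 libraries headed LPS+, and Il1b is high in the 6 with a tlr4f/f-lysM-cre heading.

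There are 4 pairwise comparisons. The LPS- columns, tlr4f/f-lysM-cre against tlr4f/f, ask for the genotype difference without LPS as headed and for the LPS response of tlr4f/f BMDMs with the headings exchanged. The LPS+ columns, tlr4f/f-lysM-cre against tlr4f/f, ask for the genotype difference with LPS as headed and for the LPS response of tlr4f/f-lysM-cre BMDMs when exchanged. The tlr4f/f columns, LPS+ against LPS-, ask for the LPS response of tlr4f/f as headed and for the genotype difference without LPS when exchanged. The tlr4f/f-lysM-cre columns, LPS+ against LPS-, ask for the LPS response of tlr4f/f-lysM-cre as headed and for the genotype difference with LPS when exchanged. A gene was called when its fold change was above 2 and its adjusted p below 0.01.

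The members fell into a large group that was high under both tlr4f/f-lysM-cre headings (Nlrp3, Mefv, Aim2, Casp1, Casp4 and Gsdmd), Nlrp1b, which was low there, and Nlrc4, Naip5 and Pycard, which differed by less than 2-fold or with spread too large to call. Among the LPS- columns, 6 of 10 members were called, 5 higher and 1 lower under tlr4f/f-lysM-cre, against 17.1% of the genes tested (9.26% higher, 7.81% lower). Among the LPS+ columns, 7 of 10 were called, 6 higher and 1 lower, against 21.8% (10.8% higher, 10.9% lower). The tlr4f/f columns gave 0 called members against 0% of genes, and the tlr4f/f-lysM-cre columns 2, both lower under LPS+, against 6.09% (2.42% higher, 3.66% lower). The median log2 fold change of the members was 1.45 among the LPS- columns (all genes, -0.08), 1.27 among the LPS+ columns (-0.02), -0.17 among the tlr4f/f columns (-0.03) and -0.53 among the tlr4f/f-lysM-cre columns (0.03).

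All 10 macrophage markers exceeded 1 CPM in each group, at a summed 7260.4 to 10109 CPM under LPS- tlr4f/f, 13461 to 15742 under LPS- tlr4f/f-lysM-cre, 4838 to 5923 under LPS+ tlr4f/f and 8109.7 to 9052 under LPS+ tlr4f/f-lysM-cre. The 6 stroma markers summed to 9.07 to 657, 136 to 1462, 20.4 to 25.0 and 30.0 to 43.8 CPM, and the 8 neutrophil markers to 0.562 to 13.2, 14.6 to 186, 4.57 to 6.65 and 5.39 to 7.60 CPM, with Ly6g at 0 in all groups but LPS- tlr4f/f-lysM-cre. The 5 dendritic cell markers summed to 0.206 to 0.772, 4.74 to 13.1, 0.382 to 0.736 and 2.88 to 3.69 CPM. B cell, T cell, erythroid and mast cell markers summed to at most 3.30 CPM in any library. Macrophage, stroma, neutrophil and dendritic cell markers had their highest sums under LPS- tlr4f/f-lysM-cre, where Nlrp3, Mefv, Casp1, Casp4 and Gsdmd were also highest, and their part in the result was not tested. Sums of macrophage, stroma and dendritic cell markers were also higher under LPS+ tlr4f/f-lysM-cre than LPS+ tlr4f/f, without overlap. Their part in the LPS+ results was not tested. The neutrophil sums there overlapped. Single macrophage markers did not all follow their sum. Mean Adgre1 and Cd14 were 2112 and 2061 CPM under LPS+ tlr4f/f-lysM-cre, against 630 and 531 under LPS+ tlr4f/f. Csf1r, Mertk and Fcgr1 were also higher in mean. Cd68 (611 against 790) was lower without overlap, and Itgam was lower in mean with overlap. C1qa, C1qb and C1qc differed by less than their SD. Among the LPS- columns, mean Csf1r and Cd68 were lower under tlr4f/f-lysM-cre, with overlapping libraries. In bulk RNA, fewer cells of a type and less RNA per cell cannot be told apart.

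**Figure D2:**
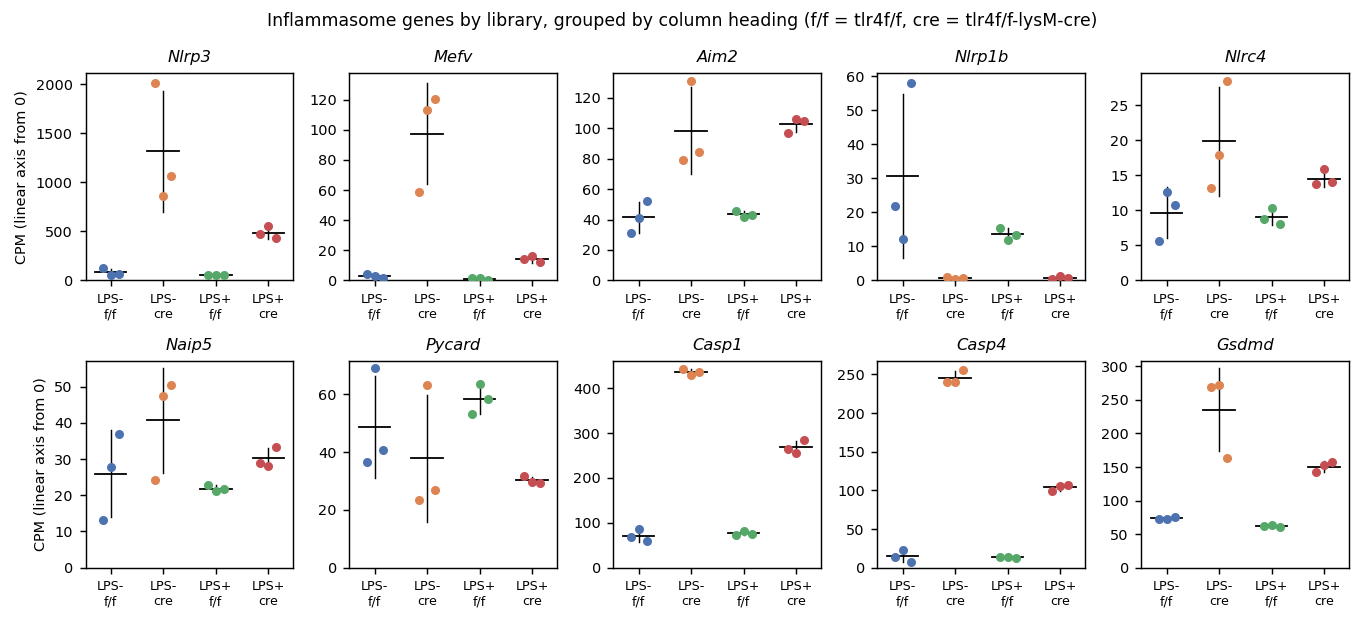
CPM of the 10 members in each library (linear axis from 0), by column heading; points are libraries, and lines give the mean and the SD of 3. Nlrp3, Mefv, Aim2, Casp1, Casp4 and Gsdmd are higher, and Nlrp1b lower, in every tlr4f/f-lysM-cre column than in any tlr4f/f column of the same LPS state.

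Nlrp3 (chr11:59541569-59566955) senses potassium efflux and many other cell stresses. Its level per library was 122, 59.5 and 63.4 CPM under LPS- tlr4f/f, 2015, 866 and 1068 under LPS- tlr4f/f-lysM-cre, 58.2, 50.5 and 50.2 under LPS+ tlr4f/f, and 475, 553 and 434 under LPS+ tlr4f/f-lysM-cre. The 6 tlr4f/f-lysM-cre columns lay above the 6 tlr4f/f columns, and within tlr4f/f-lysM-cre the LPS- columns lay above the LPS+ columns. Mean values were 81.5 ± 34.8, 1316 ± 614, 53.0 ± 4.56 and 487 ± 60.6 CPM (SD, n = 3) in the same order. The change on the log2 scale was 4.01 (SE 0.484, adjusted p = 0.00188) among the LPS- columns and 3.21 (SE 0.103, adjusted p = 4.43e-09) among the LPS+ columns, 16.1-fold and 9.26-fold. Between the tlr4f/f-lysM-cre columns it was -1.43 (SE 0.328, adjusted p = 0.0219), which missed the call, and between the tlr4f/f columns -0.61 (SE 0.290, adjusted p = 0.253).

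Mefv (chr16:3706974-3718211) encodes pyrin, a sensor that forms its own inflammasome. Per library it was 4.12, 3.0 and 1.44 CPM under LPS- tlr4f/f, 58.8, 113 and 120.4 under LPS- tlr4f/f-lysM-cre, 1.26, 1.29 and 0.538 under LPS+ tlr4f/f, and 14, 16.5 and 11.9 under LPS+ tlr4f/f-lysM-cre. It was low under both tlr4f/f headings and did not overlap between any pair of columns compared. Its log2 fold change was 5.08 (SE 0.511, adjusted p = 0.00121) among the LPS- columns, 33.8-fold, and 3.82 (SE 0.282, adjusted p = 4.93e-06) among the LPS+ columns. Between the tlr4f/f-lysM-cre columns it was -2.77 (SE 0.297, adjusted p = 0.00242), 6.83-fold lower with LPS+. Between the tlr4f/f columns the value was -1.46 (SE 0.519, adjusted p = 0.156), and the counts there were 240, 188 and 77 against 60, 50 and 31.

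Aim2 (chr1:173349547-173466040), the sensor of double-stranded DNA in the cytosol, was 31.4, 40.8 and 52.0 CPM under LPS- tlr4f/f, 79.1, 131 and 84.8 under LPS- tlr4f/f-lysM-cre, 45.6, 41.7 and 43.1 under LPS+ tlr4f/f, and 97.1, 106 and 105 under LPS+ tlr4f/f-lysM-cre. The tlr4f/f-lysM-cre columns were above the tlr4f/f columns without overlap at both LPS states. The log2 fold change was 1.25 (SE 0.0590, adjusted p = 2.19e-09) among the LPS+ columns, which was called, and 1.24 (SE 0.263, adjusted p = 0.0123) among the LPS- columns, which missed the threshold of 0.01. Between LPS states it was 0.088 (SE 0.176, adjusted p = 0.791) under tlr4f/f and 0.081 (SE 0.190, adjusted p = 0.779) under tlr4f/f-lysM-cre. The fitted row was 1 of 3 tied rows among 24 transcript rows of the gene.

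Nlrp1b (chr11:71152574-71242514) senses proteolytic cleavage and was the member called lower under tlr4f/f-lysM-cre at both LPS states. Its levels were 21.7, 12.2 and 58.0 CPM under LPS- tlr4f/f, 0.886, 0.436 and 0.747 under LPS- tlr4f/f-lysM-cre, 15.5, 11.9 and 13.2 under LPS+ tlr4f/f, and 0.483, 1.26 and 0.619 under LPS+ tlr4f/f-lysM-cre. The tlr4f/f libraries stood above all tlr4f/f-lysM-cre libraries, whose counts were 33, 14 and 24 and 21, 46 and 28, and replicate 3 of LPS- tlr4f/f was the highest. The log2 fold change was -5.46 (SE 0.711, adjusted p = 0.00253) among the LPS- columns and -4.13 (SE 0.271, adjusted p = 9.87e-07) among the LPS+ columns, a level 44.0-fold and 17.5-fold lower. Between LPS states it was -1.15 (SE 0.544, adjusted p = 0.250) and 0.19 (SE 0.511, adjusted p = 0.810). The row is annotated as a non-coding transcript of the gene, its next row held 95.9% of its counts, and Nlrp1a is a close relative, so the assignment of reads is uncertain.

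Nlrc4 (chr17:74426255-74459144) assembles on NAIP proteins that have bound their ligand, of which Naip5 (chr13:100211735-100250930) is a flagellin receptor. Nlrc4 was 5.56, 12.7 and 10.8 CPM under LPS- tlr4f/f, 13.3, 17.9 and 28.4 under LPS- tlr4f/f-lysM-cre, 8.71, 10.4 and 8.07 under LPS+ tlr4f/f, and 13.7, 15.8 and 14 under LPS+ tlr4f/f-lysM-cre. Every tlr4f/f-lysM-cre library lay above the tlr4f/f libraries of its LPS state, with a log2 fold change of 1.03 (SE 0.405, adjusted p = 0.0885) among the LPS- columns and 0.69 (SE 0.112, adjusted p = 1.59e-04) among the LPS+ columns. Neither was called, since the first missed the p and the second the fold. Naip5 was 13.1, 27.7 and 36.9 CPM under LPS- tlr4f/f, 24.1, 47.5 and 50.4 under LPS- tlr4f/f-lysM-cre, 22.7, 21.0 and 21.8 under LPS+ tlr4f/f, and 29.0, 28.2 and 33.4 under LPS+ tlr4f/f-lysM-cre. Its LPS- columns overlapped, with a log2 fold change of 0.65 (SE 0.436, adjusted p = 0.284). Its LPS+ columns did not overlap, with 0.48 (SE 0.0787, adjusted p = 1.96e-04), a 1.39-fold difference that was too small for a call. In the joint edgeR fit of all 12 libraries, the adjusted p among the LPS+ columns was 0.346 for Naip5 and 0.127 for Nlrc4. Between LPS states, the log2 fold change of Nlrc4 was -0.079 (SE 0.307, adjusted p = 0.897) under tlr4f/f and -0.44 (SE 0.283, adjusted p = 0.287) under tlr4f/f-lysM-cre, and that of Naip5 was -0.22 (SE 0.346, adjusted p = 0.725) and -0.42 (SE 0.272, adjusted p = 0.297). Naip5 belongs to a family with Naip1, Naip2 and Naip6, and reads shared between its members were not resolved here.

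Pycard (chr7:127991373-127993867) encodes ASC, the adaptor that links sensors to caspase-1. It was 36.6, 69.1 and 40.9 CPM under LPS- tlr4f/f, 23.5, 63.2 and 27.0 under LPS- tlr4f/f-lysM-cre, 53.3, 63.6 and 58.3 under LPS+ tlr4f/f, and 31.7, 29.7 and 29.2 under LPS+ tlr4f/f-lysM-cre. The LPS- columns overlapped, and among the LPS+ columns every tlr4f/f-lysM-cre library was below every tlr4f/f library. The log2 fold change was -0.94 (SE 0.0700, adjusted p = 1.50e-07) there, 1.92-fold lower and below the fold needed for a call, against -0.38 (SE 0.435, adjusted p = 0.517) among the LPS- columns. In the joint edgeR fit of all 12 libraries, the adjusted p among the LPS+ columns was 0.0610. Between LPS states the log2 fold change was 0.27 (SE 0.251, adjusted p = 0.547) under tlr4f/f and -0.30 (SE 0.353, adjusted p = 0.561) under tlr4f/f-lysM-cre. The gene Gm45205 lies on the opposite strand over Pycard exons, and the library kit does not mark strand, so reads over the shared exons cannot be told apart.

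Casp1 (chr9:5298517-5307281) cleaves the IL-1 family precursors and Casp4 (chr9:5308849-5336791) acts in the noncanonical inflammasome. They are neighbours, with 1567 bases between the end of Casp1 and the start of Casp4. Casp1 was 67.7, 86.6 and 60.2 CPM under LPS- tlr4f/f, 442, 428 and 436 under LPS- tlr4f/f-lysM-cre, 73.1, 81.8 and 76.0 under LPS+ tlr4f/f, and 264, 256 and 284 under LPS+ tlr4f/f-lysM-cre. Its coefficient of variation was 1.55% to 19.0% within groups, and the tlr4f/f-lysM-cre columns stood clear of the tlr4f/f columns. The change on the log2 scale was 2.60 (SE 0.194, adjusted p = 6.05e-04) among the LPS- columns, 6.06-fold, and 1.81 (SE 0.0617, adjusted p = 1.16e-10) among the LPS+ columns. Between LPS states it was -0.69 (SE 0.104, adjusted p = 0.00630) under tlr4f/f-lysM-cre, 1.61-fold lower with LPS+, and 0.12 (SE 0.151, adjusted p = 0.662) under tlr4f/f.

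Casp4 was 14.1, 22.6 and 7.14 CPM under LPS- tlr4f/f, 240.0, 241 and 256 under LPS- tlr4f/f-lysM-cre, 13.7, 14.2 and 12.5 under LPS+ tlr4f/f, and 98.9, 106 and 107 under LPS+ tlr4f/f-lysM-cre. Within tlr4f/f-lysM-cre the LPS- columns were the highest and the LPS+ columns next, both clear of tlr4f/f. The log2 fold change was 4.06 (SE 0.441, adjusted p = 0.00141) among the LPS- columns, 16.7-fold, and 2.96 (SE 0.0677, adjusted p = 4.51e-12) among the LPS+ columns, 7.79-fold. Between the tlr4f/f-lysM-cre columns it was -1.23 (SE 0.102, adjusted p = 0.00125), 2.34-fold lower with LPS+, and between the tlr4f/f columns -0.11 (SE 0.394, adjusted p = 0.892). The Casp4 promoter printed above holds kappaB matches, and Casp1, whose levels moved the same way, holds none in the 250 bases searched. Whether the matches bear on the levels was not tested.

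Gsdmd (chr15:75862144-75867408), the pore former that both caspases cut, was 72.2, 72.9 and 76.1 CPM under LPS- tlr4f/f, 269, 272 and 164 under LPS- tlr4f/f-lysM-cre, 62.3, 64.3 and 60.7 under LPS+ tlr4f/f, and 142, 153 and 157 under LPS+ tlr4f/f-lysM-cre. It varied little within each tlr4f/f group and was lower under LPS+ tlr4f/f than LPS- tlr4f/f, without overlap. Gsdmd was higher in every tlr4f/f-lysM-cre library, with replicate 3 of LPS- tlr4f/f-lysM-cre the lowest of its group. Its log2 fold change was 1.66 (SE 0.219, adjusted p = 0.00242) among the LPS- columns and 1.28 (SE 0.0560, adjusted p = 1.08e-09) among the LPS+ columns. Between LPS states it was -0.62 (SE 0.197, adjusted p = 0.0583) under tlr4f/f-lysM-cre and -0.22 (SE 0.0712, adjusted p = 0.125) under tlr4f/f.

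**Figure D3:**
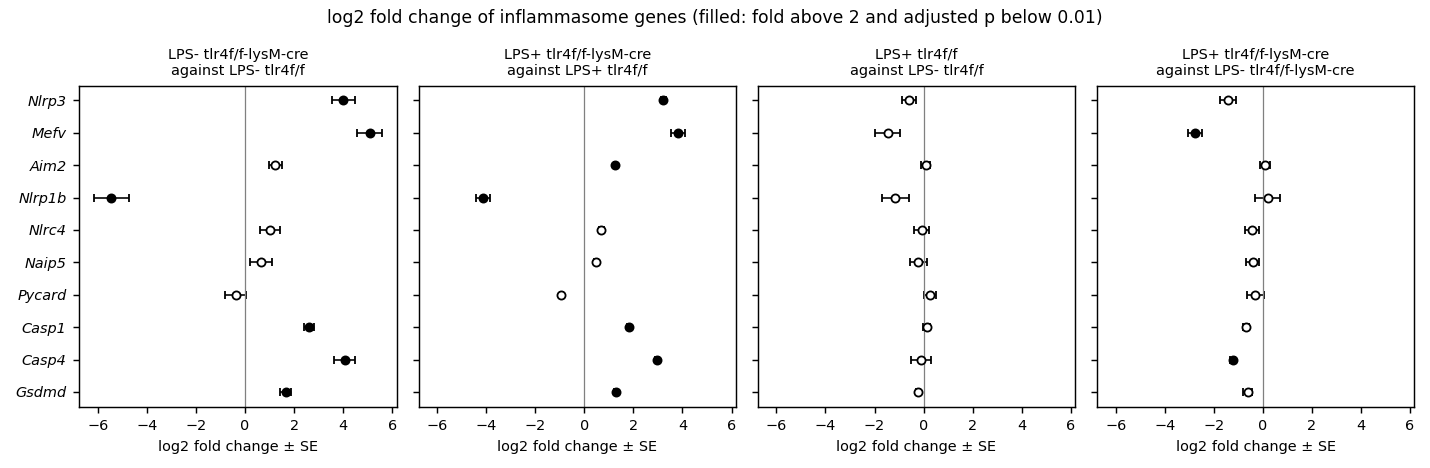
log2 fold change with its SE for the 10 members in the 4 comparisons (filled, fold above 2 and adjusted p below 0.01). Nlrp3, Mefv, Casp1, Casp4 and Gsdmd lie to the right and Nlrp1b to the left in both comparisons of tlr4f/f-lysM-cre with tlr4f/f columns.

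Over the libraries, members whose groups did not overlap numbered 8 of 10 among the LPS- columns, 10 of 10 among the LPS+ columns, 3 of 10 among the tlr4f/f columns and 5 of 10 among the tlr4f/f-lysM-cre columns, against 54.1%, 67.5%, 35.3% and 48.0% of genes. At an adjusted p below 0.05 the tlr4f/f-lysM-cre columns had 4 (Nlrp3, Mefv, Casp1 and Casp4), against 26.7% of genes, and the tlr4f/f columns 0, against 1.28%. The tlr4f/f columns had 2 (Mefv and Gsdmd) at an unadjusted p below 0.05, against 24.6% of genes. As headed, the LPS response of tlr4f/f has 0 called members, in a fit that called 0% of all genes. The LPS response of tlr4f/f-lysM-cre has Mefv and Casp4 lower, and the genotype difference has 6 without LPS and 7 with LPS. With the headings exchanged, the LPS response of tlr4f/f has Nlrp3, Mefv, Casp1, Casp4 and Gsdmd higher and Nlrp1b lower. The LPS response of tlr4f/f-lysM-cre then has these genes and Aim2. The genotype difference then has 0 without LPS, from the fit of the tlr4f/f columns, and, with LPS, Mefv and Casp4 lower in tlr4f/f-lysM-cre. In the fit of the tlr4f/f columns even Lyz2, 1088-fold lower under LPS+, missed the call (adjusted p = 0.0224). The 0 there therefore does not set the members apart from other genes.

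Leaving out replicate 1, 2 or 3 of LPS+ tlr4f/f-lysM-cre left 0 called members between the tlr4f/f-lysM-cre columns, with 4, 7 and 15 genes called in all, although the log2 fold changes of Mefv and Casp4 stayed within -3.05 to -2.60 and -1.26 to -1.18. Among the LPS- columns, Nlrp1b lost its call without any 1 of the tlr4f/f-lysM-cre replicates (adjusted p = 0.0125, 0.0132 and 0.0137), and Gsdmd lost its call without replicate 1 or 2 of tlr4f/f-lysM-cre (0.0112 and 0.0109) or of tlr4f/f (0.0110 and 0.0133). Called members numbered 4, 4 and 5 without replicate 1, 2 or 3 of tlr4f/f-lysM-cre, and 5, 5 and 6 without those of tlr4f/f. The dispersion between replicates was 48.1% and 42.6% (biological coefficient of variation) in the LPS- columns and 8.83% and 9.04% in the LPS+ columns.

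The interaction of genotype and LPS takes the same value in both readings and asks whether the LPS response differs between the genotypes. Of the members, 0 were called, against 0.994% of genes. Casp1 had -0.81 (SE 0.181, adjusted p = 0.0268), 1 of 10 members with an adjusted p below 0.05, against 6.99% of genes. It missed 0.05 when replicate 1 of LPS- tlr4f/f or any LPS+ column was left out, or when no filter on low counts was used, with an adjusted p of up to 0.0888. Casp4 had -1.12 (SE 0.420, adjusted p = 0.137) and Mefv -1.30 (SE 0.593, adjusted p = 0.220). In the exchanged reading a negative value is a smaller rise with LPS in tlr4f/f-lysM-cre than in tlr4f/f.

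Levels between genes were compared per kilobase of the transcript row, the row with the highest total for each gene. Which transcript the cells expressed was not determined, so the order between genes rests on the length of that row. Under LPS- tlr4f/f the order was Casp1 (47.2 CPM per kb), Gsdmd (41.5), Pycard (22.9), Nlrp3 (20.3), Casp4 (10.1), Aim2 (7.79), Nlrp1b (6.88), Naip5 (4.8), Nlrc4 (2.41) and Mefv (0.878), and neighbours overlapped except Gsdmd with Pycard and Nlrc4 with Mefv. Under LPS- tlr4f/f-lysM-cre Nlrp3 led (327), overlapping Casp1 (288), and Casp4 (170) and Gsdmd (132) followed. Nlrp1b was last at 0.155. Under LPS+ tlr4f/f the order was that of LPS- tlr4f/f except that Naip5 stood above Nlrp1b, and no neighbours overlapped. Under LPS+ tlr4f/f-lysM-cre it ran from Casp1 (177) over Nlrp3 (121), Gsdmd (84.9) and Casp4 (72.1) to Nlrp1b (0.177), with overlap only between Mefv and Nlrc4.

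**Figure D4:**
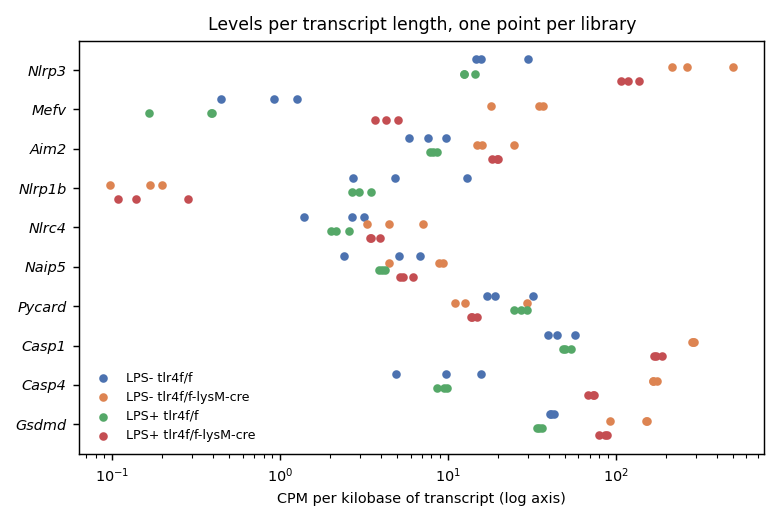
Levels of the members in CPM per kilobase of transcript (log axis), 1 point per library, coloured by column heading. Casp1 and Gsdmd have the highest means under tlr4f/f, and Nlrp3, Casp1, Casp4 and Gsdmd are the highest 4 under tlr4f/f-lysM-cre.

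A list of 31 other genes of the pathway was examined in the same fits, and between 27 and 29 were tested. Among the LPS- columns 13 were called higher and 1 lower under tlr4f/f-lysM-cre, against 9.26% and 7.81% of all genes tested. The LPS+ columns gave 12 higher and 0 lower, against 10.8% and 10.9%. Il1b, counted in the 13 and in the 12, was also used to check the headings. The list was chosen with earlier results of these data known, so these shares are not a test of it. The tlr4f/f columns gave 0, against 0%, and the tlr4f/f-lysM-cre columns 0 higher and 6 lower with LPS+, against 2.42% and 3.66%. The median log2 fold change of the list was 1.20 (all genes, -0.08), 0.68 (-0.02), -0.18 (-0.03) and -0.40 (0.03) in the same order. Il18, Naip2, Ifi204, Zbp1, Trim30a, Irf1, Gbp2, Gbp5, Tnfaip3 and Il1b were called higher in both of the first 2 comparisons, Casp8, Mark4 and Pkn2 among the LPS- columns alone, and Ninj1 and Mlkl among the LPS+ columns alone; whether the fold differed between the comparisons is what the interaction tests. Nlrp6 was listed at 0 in all 12 libraries. The substrate Il1b had a log2 fold change of 10.15 (SE 1.78, adjusted p = 0.00672) among the LPS- columns and 9.66 (SE 0.106, adjusted p = 2.25e-14) among the LPS+ columns. Gbp5, a guanylate-binding protein that acts on pathogen membranes, had 8.59 (SE 0.994, adjusted p = 0.00178) and 7.76 (SE 0.161, adjusted p = 2.62e-09), and its libraries were 6.74, 5.20 and 0.656 CPM under LPS- tlr4f/f and 1668, 1884 and 1349.9 under LPS- tlr4f/f-lysM-cre. Nlrp1a was the gene called lower among the LPS- columns, at -1.44 (SE 0.218, adjusted p = 0.00371). Between the tlr4f/f-lysM-cre columns Casp12, an inflammatory caspase of counts from 7, 10 and 6 under LPS+ to 47, 53 and 121 under LPS-, had -3.54 (SE 0.589, adjusted p = 0.00833), and Tnfaip3, an inhibitor of NF-kappaB signalling, had -2.12 (SE 0.146, adjusted p = 9.62e-04).

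**Figure D5:**
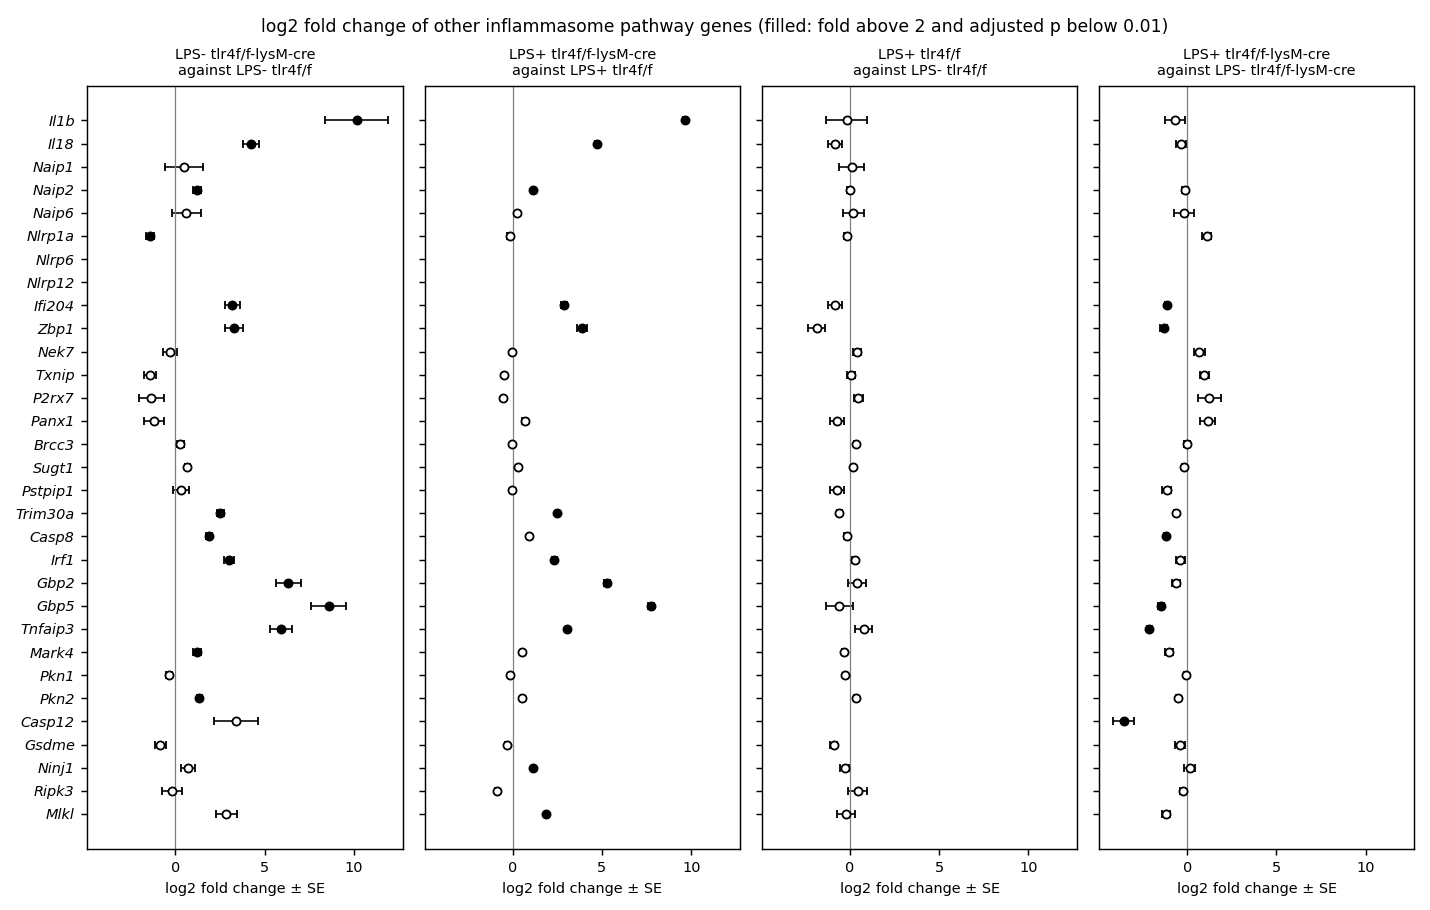
log2 fold change with its SE for the other pathway genes in the 4 comparisons (filled, fold above 2 and adjusted p below 0.01). Il1b and Gbp5 have the largest values in both comparisons of tlr4f/f-lysM-cre with tlr4f/f columns, and genes not tested have no point.

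Over the 12 libraries, the genes whose log2 CPM followed Nlrp3 most closely among 15782 genes were Vasp (Pearson r = 0.992), Upp1 (0.991) and Sdc4 (0.991), and those of Casp4 were Car13 (0.995), Cd274 (0.994) and Fcrlb (0.994). Pycard was followed by Gm45205 (0.994), listed in the table by its Ensembl identifier and with exons that overlap those of Pycard on the opposite strand, Vav3 (0.974) and Vipas39 (0.973), and Nlrc4 by Dram2 (0.958), Cd48 (0.954) and Pgam2 (0.952). The libraries share groups, so these values describe the pattern and carry no test.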

How the data were processed

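Reads of 12 libraries (mm10) were trimmed with Trimmomatic 0.36, aligned with HISAT2 and counted with HTSeq by the authors, who deposited raw counts per transcript without normalization (115140 transcript rows). The kit was NEBNext Ultra, which marks no strand. The labels name rRNA removal as well as polyA sequencing. The row with the highest total was kept for each gene, which left 33577440 to 56445989 counts per library (median 45331247.5).

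Counts were tested with edgeR 4.0.16 (R 4.3.3; filterByExpr, TMM, robust quasi-likelihood, Benjamini-Hochberg over all genes tested), each comparison on its 6 libraries and the interaction on all 12. Calls needed a fold above 2 and adjusted p below 0.01, the criteria of the study, which used DESeq. The log2 CPM used a prior count of 2. Alternatives were DESeq2 1.42.0, RLE factors, filters of 1 and 10 counts, a joint fit and sums over rows. Others were an adjusted p below 0.05 without the fold threshold, exchanged headings and each replicate left out. Named genes were the members, Tlr4, Lyz2, Il1b, the genes of the pathway list (with values for the 2 called with the largest fold in each direction of a comparison), and the 3 genes most like Nlrp3, Casp4, Pycard and Nlrc4. Members, lists and alternatives were chosen with earlier results of these data known.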

Additional observations from a re-analysis of the deposited data

Results flagged for a closer look

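Among the genes examined, 5 had an interaction of genotype and LPS at an adjusted p below 0.05, a test of the difference between the LPS effects that takes the same value in both readings of the headings. Casp1 had a log2 value of -0.81 (SE 0.181, adjusted p = 0.0268). Nlrp1a had 1.26 (SE 0.275, adjusted p = 0.0236), Casp8 -0.99 (SE 0.184, adjusted p = 0.0127), Tnfaip3 -2.89 (SE 0.540, adjusted p = 0.0129) and Pkn2 -0.84 (SE 0.115, adjusted p = 0.00462). A negative value is a smaller rise, a larger fall, or a fall against a rise, in tlr4f/f-lysM-cre compared with tlr4f/f. Over all genes 6.99% were at an adjusted p below 0.05, and groups of 3 were not tested for single outlying libraries.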

How the results depend on the processing

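Exchanging the headings changed the count of called members from 6 to 0 without LPS by genotype, from 7 to 2 with LPS by genotype, from 0 to 6 for LPS in tlr4f/f and from 2 to 7 for LPS in tlr4f/f-lysM-cre. The log2 fold changes whose sign turned became, for genotype without LPS, Nlrp3 -0.61, Nlrc4 -0.079, Mefv -1.46, Pycard 0.27, Casp4 -0.11, Gsdmd -0.22, Naip5 -0.22; for genotype with LPS, Nlrp3 -1.43, Nlrc4 -0.44, Nlrp1b 0.19, Mefv -2.77, Casp1 -0.69, Casp4 -1.23, Gsdmd -0.62, Naip5 -0.42; for LPS in tlr4f/f, Nlrp3 4.01, Nlrc4 1.03, Mefv 5.08, Pycard -0.38, Casp4 4.06, Gsdmd 1.66, Naip5 0.65; and for LPS in tlr4f/f-lysM-cre, Nlrp3 3.21, Nlrc4 0.69, Nlrp1b -4.13, Mefv 3.82, Casp1 1.81, Casp4 2.96, Gsdmd 1.28, Naip5 0.48. With an adjusted p below 0.05 and no fold threshold, 4 members passed between the tlr4f/f-lysM-cre columns and 1 in the interaction. DESeq2, RLE factors, both filters, the joint fit and the sum over rows kept each count of called members within 1.5 times, but not always the same genes. Between the tlr4f/f-lysM-cre columns, the joint fit lost Casp4 (adjusted p = 0.0117) and gained Nlrp3 (-1.43, adjusted p = 0.00971), which DESeq2 also called (adjusted p = 7.41e-05). Among the LPS- columns Aim2 was called by DESeq2 (adjusted p = 1.38e-04), with both filters (0.00662 and 0.00999) and in the joint fit (4.60e-04). The cause of the changes was not tested.

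Over all genes, the main test called 2500, 3165, 0 and 867 genes among the LPS-, LPS+, tlr4f/f and tlr4f/f-lysM-cre columns and 157 in the interaction. DESeq2 called 3996, 464 and 2006 among the LPS-, tlr4f/f and tlr4f/f-lysM-cre columns and 644 in the interaction, and the joint fit 4258, 2053 and 75 among the LPS-, LPS+ and tlr4f/f columns. No filter gave 34 among the tlr4f/f columns. Leaving out a library gave 1039 to 1683 among the LPS- columns, 0 to 182 among the tlr4f/f columns, 4 to 1180 among the tlr4f/f-lysM-cre columns and 10 to 306 in the interaction.

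Replicate numbers were not treated as pairs, and the sources used here do not say whether they mark pairs. Deviations of libraries with the same number correlated between -0.037 and 0.472 over 18 pairs. Those with different numbers correlated between -0.490 and 0.203 over 36 pairs. The highest values, 0.472 and 0.340, joined replicates 1 and replicates 2 of the 2 LPS- groups. A library correlated best with its own number, of 3 in the other group, in 19 of 36 combinations. The replicate block, a fit with the replicate number as a pairing term, left each count of called members as it was (6, 7, 0, 2 and 0 in the interaction), called 212 genes in all between the tlr4f/f-lysM-cre columns, and turned Casp4 between the tlr4f/f columns to 0.044. The interaction of Aim2 was 0.023 without a filter beyond 1 count and 0.025 with the sum over rows. With 1 library left out, called members ranged from 4 to 6 among the LPS- columns, 7 to 7 among the LPS+ columns, 0 to 0 among the tlr4f/f columns, 0 to 2 among the tlr4f/f-lysM-cre columns and 0 to 0 in the interaction. Values that turned sign then ranged, between the tlr4f/f columns, from -0.069 to 0.28 for Aim2, -0.43 to 0.36 for Casp4, -0.54 to 0.11 for Naip5 and -0.35 to 0.17 for Nlrc4. Between the tlr4f/f-lysM-cre columns they ranged from -0.077 to 0.33 for Aim2, -0.31 to 0.46 for Nlrp1b and -0.58 to 0.26 for Pycard, and in the interaction from -0.18 to 0.26 for Aim2, -0.51 to 0.15 for Naip5 and -0.91 to 0.010 for Pycard. Depth limits the Nlrp1b values, which rest on as few as 14 counts in a library.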
